A study of Chlorocebus sabaeus with 4 samples.

Results

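The glutathione S-transferases were followed through 10 genes, GSTA1, GSTA4, GSTM1, GSTM2, GSTM3, GSTM4, GSTM5, GSTP1, GSTO1 and MGST1, which were read by 20 of the 54613 probe sets that are not controls. A probe set was taken when the array platform's annotation gave it one of these symbols, and none of the 20 carried a second symbol. RNA came from the corpus luteum, the progesterone-making gland of the ovary, of 2 female vervet monkeys (Chlorocebus sabaeus) aged 16 years. Monkey 1031 was on calorie restriction and monkey 1030 was fed ad libitum, and each gave samples 1 and 2, with 1 array per sample. Diet and animal therefore cannot be told apart. Which sample number was taken first is not given in the labels, so every change below is sample 2 minus sample 1.

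Glutathione S-transferases join the tripeptide glutathione to reactive, electrophilic molecules such as the aldehydes and peroxides that arise from oxidised lipid, which makes them more soluble and ready for export. The soluble enzymes fall into classes by sequence (alpha, mu, pi, omega and others), and MGST1 belongs to a separate family of membrane proteins. In humans, alpha-class enzymes also take part in steroid hormone synthesis as double-bond isomerases. Many of the genes are targets of the transcription factor NRF2, which responds to oxidative and electrophilic stress.

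Mu-class signal was high in one array. In sample 2 of the ad libitum animal, the brightest probe sets of GSTM3, GSTM5, GSTM2, GSTM4 and GSTM1 were between 2.18-fold and 4.00-fold above sample 1 of the same animal. In the calorie restriction animal, the same 5 probe sets had log2 changes of -0.18 to -1.53, of which that of GSTM3 alone reached 2-fold. On their brightest probe sets, GSTA4 and GSTO1 were nearly level in all 4 samples. Since each sample was a single array, no spread can be given for a within-animal change, which carries no p-value, and 2-fold is used as a rule of size.

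Several facts of the arrays bear on these values. The probes were designed on human genes, and 11 of the 20 probe sets have IDs ending in _x_at or _s_at, which mark probes that also match other transcripts, often close relatives. All 5 mu-class probe sets that lay past the level filter (a mean log2 signal of 5.26, the median over genes) are of this kind, so they may share signal and are not 5 separate measurements. Sample 2 from the ad libitum animal lay far from the other arrays, with 912 to 1031 of 9888 genes 2-fold away from each of them, whereas the other 3 arrays were 122 to 333 genes apart. Control transcripts added before hybridisation averaged a log2 signal of 10.54 in sample 2 and 10.09 in sample 1 of the calorie restriction animal. They averaged 9.85 in sample 2 and 10.58 in sample 1 of the other animal. This pattern runs opposite to that of GSTM3. The 3' to 5' signal difference of the GAPDH controls lay between 1.15 and 1.41 on the log2 scale in the 4 arrays, lowest in sample 2 of the ad libitum animal. The same difference of the ACTB controls lay between 1.48 and 1.73, lowest in the calorie restriction animal's sample 1. The part of these differences in the results was not tested.

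**Figure D1:**
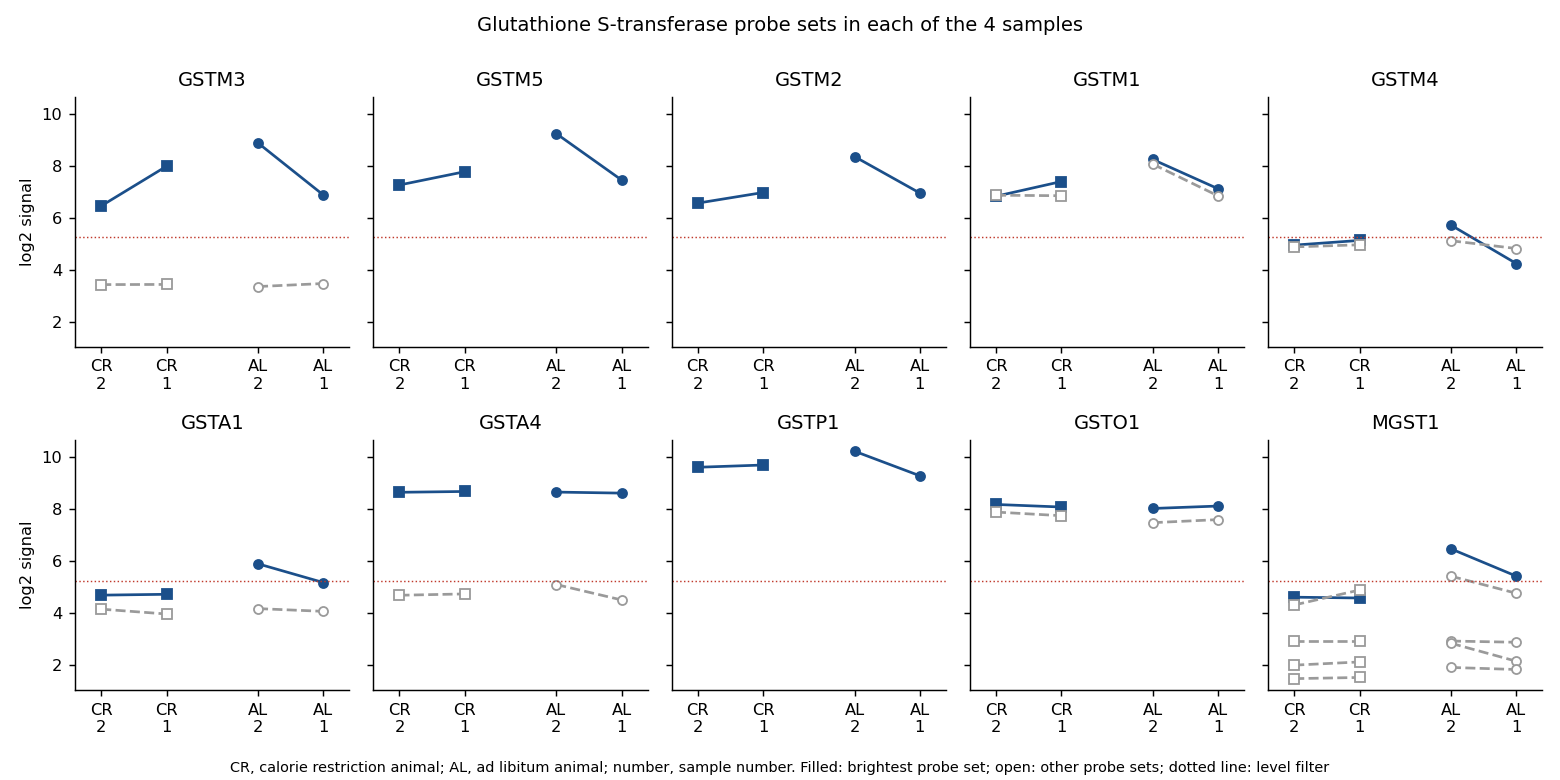
Log2 signal (vertical axis) of every probe set of the 10 genes in samples 2 and 1 of the calorie restriction animal (CR, squares) and of the ad libitum animal (AL, circles), with the brightest probe set of each gene filled, the others open, and the level filter as a dotted line. The ad libitum animal's sample 2 is the highest point for the brightest probe set of all 5 mu-class genes, of GSTA1, GSTP1 and MGST1, and not for GSTA4 and GSTO1.

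Of the mu class, GSTM3, known in humans for its abundance in testis and brain, had the largest changes. In the calorie restriction animal its log2 signal was 6.47 in sample 2, against 7.99 in sample 1. In the ad libitum animal it was 8.89 in sample 2, against 6.89 in sample 1. The 2 animals thus went in opposite directions, and the ranges of their samples overlapped. Sample 2 was 2.88-fold lower than sample 1 in the calorie restriction animal (log2 change -1.53) and 4.00-fold higher in the ad libitum animal (2.00). Among 16798 probe sets past the level filter, 29 changed as far downward or farther in the calorie restriction animal (0.173%), and 37 as far upward or farther in the ad libitum animal (0.220%). The second GSTM3 probe set, 235867_at, lay between 3.37 and 3.48 in the 4 samples, far below the level filter, and had changes of -0.01 in the calorie restriction and -0.12 in the ad libitum animal. The GSTM3 changes therefore rest on 1 probe set, 202554_s_at, and averaging both probe sets gave -0.77 in the calorie restriction and 0.94 in the ad libitum animal, under 2-fold in each.

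GSTM5, a further mu-class enzyme, had a log2 signal of 7.27 in sample 2 and 7.78 in sample 1 of the calorie restriction animal. It was 9.25 in sample 2 and 7.46 in sample 1 of the ad libitum animal. The ad libitum animal's sample 2 was thus far above the other 3 arrays. The changes were -0.51 in the calorie restriction animal and 1.78 in the ad libitum animal, the second being 3.45-fold.

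GSTM2, which in humans conjugates oxidised catechols such as aminochrome, showed the same order of samples. Its signal was 6.58 in sample 2 and 6.98 in sample 1 of the calorie restriction animal, and 8.37 in sample 2 and 6.96 in sample 1 of the ad libitum animal. The changes came to -0.41 in the calorie restriction animal and to 1.40 in the ad libitum animal, 2.64-fold higher there. GSTM5 and GSTM2 have 1 probe set each, so neither change could be set against a second one.

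GSTM1, the gene that many people lack through a common deletion, was read by a pair of probe sets, both past the filter. The brighter, 215333_x_at, was 6.84 in sample 2 and 7.40 in sample 1 of the calorie restriction animal, and 8.25 in sample 2 and 7.13 in sample 1 of the ad libitum animal. The other, 204550_x_at, was 6.88 in sample 2 and 6.86 in sample 1 of the calorie restriction animal, and 8.07 in sample 2 and 6.85 in sample 1 of the ad libitum animal. Both probe sets had the ad libitum animal's sample 2 above the other 3 samples. Their changes in the calorie restriction animal, -0.56 and 0.02, had no common direction. In the ad libitum animal they were 1.12 and 1.22, or 2.18-fold and 2.33-fold higher.

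GSTM4, a close mu-class relative, lay below the level filter on both probe sets. The brighter, 204149_s_at, was 4.96 in sample 2 and 5.14 in sample 1 of the calorie restriction animal, and 5.73 in sample 2 and 4.25 in sample 1 of the ad libitum animal. Here sample 1 of the ad libitum animal was the lowest of the 4, unlike in GSTM5 and GSTM2, where the calorie restriction animal's sample 2 was lowest. Its changes were -0.18 in the calorie restriction animal and 1.48 (2.78-fold) in the ad libitum animal. On the second probe set the changes were -0.08 in the calorie restriction and 0.30 in the ad libitum animal.

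In the vervet RefSeq annotation (assembly mChlSab1.0.hap1), 6 of the 10 genes were found by symbol, and GSTA1, GSTA4, GSTM2 and GSTM5 were not matched. GSTM3, GSTM1 and GSTM4 lie in this order in 1 cluster of 6 genes between EPS8L3 and AMPD2. The other members of the cluster are 2 protein-coding genes without a symbol and 1 pseudogene. How well the human probes tell these neighbours apart in the vervet was not analysed here.

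The alpha class did not reach 2-fold in either animal. GSTA1, an enzyme of glutathione conjugation and, in humans, of steroid isomerisation, had a log2 signal of 4.70 in sample 2 and 4.73 in sample 1 of the calorie restriction animal on its brighter probe set, 203924_at. It was 5.90 in sample 2 and 5.18 in sample 1 of the ad libitum animal. The mean of this probe set, 5.13, was just under the filter. The changes were -0.03 in the calorie restriction animal and 0.72 (1.65-fold) in the ad libitum animal. The other GSTA1 probe set lay between 3.97 and 4.18.

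GSTA4, which favours the lipid aldehyde 4-hydroxynonenal, was the steadiest gene on its brighter probe set, 202967_at. It stood at 8.65 in sample 2 and 8.68 in sample 1 of the calorie restriction animal, and at 8.66 in sample 2 and 8.62 in sample 1 of the ad libitum animal. All 4 samples lay within 0.063 of each other on the log2 scale. The dimmer probe set, below the filter, had changes of -0.05 in the calorie restriction and 0.59 in the ad libitum animal.

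GSTP1, the single pi-class enzyme, also known as a binding partner of the stress kinase JNK, had 9.61 in sample 2 and 9.70 in sample 1 of the calorie restriction animal. It had 10.23 in sample 2 and 9.29 in sample 1 of the ad libitum animal. The pair from the ad libitum animal enclosed the pair from the other animal. Its changes were -0.09 in the calorie restriction and 0.94 in the ad libitum animal. The second, at 1.92-fold, was just under the 2-fold rule, which it passed after cyclic loess normalisation (1.01).

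GSTO1, an omega-class enzyme that reduces dehydroascorbate and mixed disulphides, changed little within either animal on both probe sets. The brighter, 1557915_s_at, was 8.18 in sample 2 and 8.09 in sample 1 of the calorie restriction animal, and 8.03 in sample 2 and 8.12 in sample 1 of the ad libitum animal. The other, 201470_at, had changes of 0.14 in the calorie restriction and -0.12 in the ad libitum animal, and its samples spanned 0.41. On the brightest probe sets, GSTO1 was the only one of the 10 genes to lie below sample 1 in the ad libitum animal's sample 2.

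MGST1, the membrane enzyme, which also reduces lipid hydroperoxides, was read by 5 probe sets, of which only 231736_x_at passed the filter. It was 4.62 in sample 2 and 4.59 in sample 1 of the calorie restriction animal, both under the filter, and 6.48 in sample 2 and 5.43 in sample 1 of the ad libitum animal. It passed the filter only through the ad libitum animal. The change was 0.03 in the calorie restriction animal and 1.05 (2.07-fold) in the ad libitum animal. The 4 dimmer probe sets had changes of -0.58 to 0 in the calorie restriction animal and of 0.05 to 0.69 in the ad libitum animal. Averaged over its 5 probe sets, the ad libitum animal's change was 0.50.

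Counted over the whole family in the calorie restriction animal, 1 of 20 probe sets was 2-fold lower in sample 2, against 0.3% of all probe sets on the array, and none was 2-fold higher. Past the filter this was 1 of 10, against 0.702% of all probe sets lower, and 0 of 10, against 0.417% higher. By the brightest probe set of each of the 8 genes past the filter, 1 gene, GSTM3, was lower, against 0.738% of all genes, and none was higher, against 0.496%. The median change of the 20 probe sets was -0.05. It was -0.06 for the 10 past the filter, against -0.03 for all probe sets past it.

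In the ad libitum animal, 7 of 20 probe sets were 2-fold higher in sample 2, against 1.27% of all probe sets on the array, and none was lower. Past the filter, 6 of 10 were higher, against 2.37% of all probe sets, and none was lower, against 6.76%. Of the 8 genes past the filter 5 were higher, against 2.67% of all genes, and 0 were lower, against 6.58%. These counts include MGST1, which passed the filter only through the same animal's high samples. Without it they were 5 of 9 probe sets and 4 of 7 genes. The median change of the 20 probe sets was 0.67, that of the 8 mu-class probe sets 1.31 and that of the 12 others 0.35. For the 10 past the filter it was 1.09 (1.12 without MGST1), against -0.02 for all probe sets past it. The ad libitum animal's sample 2 was the highest of the 4 samples for 7 of the 10 past the filter (6 of 9 without MGST1), against 34.1% of all probe sets. None of the 3 probe sets past the filter whose IDs end in plain _at, those of GSTP1, GSTA4 and GSTO1, was 2-fold apart in either animal.

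**Figure D2:**
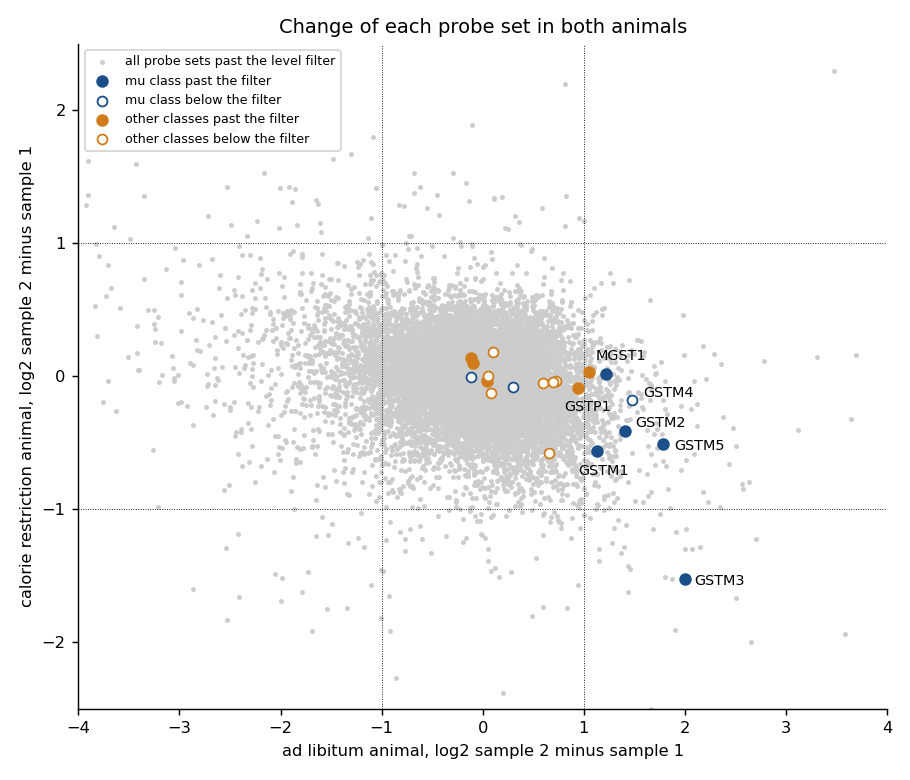
Change of each probe set in the ad libitum animal (horizontal axis) and in the calorie restriction animal (vertical axis), both as log2 sample 2 minus sample 1, with all 16798 probe sets past the level filter in grey, mu-class probe sets in blue, other classes in orange, open symbols below the filter, and dotted lines at 2-fold. The mu-class probe sets past the filter lie right of the 2-fold line, and GSTM3, at -1.53 in the calorie restriction and 2.00 in the ad libitum animal, is also below the lower one. There are 27 grey points beyond the axes.

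The title of the series names weight gain and weight loss, which raises the question of which genes moved in opposite directions in the 2 animals. At 1.5-fold in each animal, lower in the calorie restriction and higher in the ad libitum animal, GSTM3 was 1 of 10 probe sets past the filter, against 1.3% of all. An opposed change was fitted with limma, with the animal as a block and 1 residual degree of freedom, as the mean of the ad libitum animal's change and the calorie restriction animal's change with its sign turned. It was 1.76 ± 0.23 (SE) for GSTM3 (Benjamini-Hochberg adjusted p = 0.747), 1.15 ± 0.36 for GSTM5, 0.91 ± 0.30 for GSTM2 and 0.84 ± 0.24 for the brighter GSTM1 probe set, each with the same adjusted p. None of the 10 members was called by limma, nor was any of the 16798 probe sets (0%). At an unadjusted p under 0.05, these 4 of 10 members passed, and 6.29% of all probe sets. For a common change in both animals limma called 0 of 10 members and 0% of all probe sets, and at an unadjusted p under 0.05 it passed 0 members and 1.98% of all. The opposed and the common change would trade places if the sample numbers ran in opposite orders in time in the 2 animals.

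Between the animals, the question was whether the calorie restriction animal's samples differed from those of the ad libitum animal by more than samples within an animal did. For GSTM3 the mean log2 signal was 7.23 ± 1.08 in the calorie restriction animal and 7.89 ± 1.41 in the ad libitum animal (SD, n = 2 samples of 1 animal each), a difference of -0.66 that limma placed at an adjusted p of 0.962. For GSTM2 it was 6.78 ± 0.29 in the calorie restriction animal and 7.66 ± 0.99 in the ad libitum animal, a difference of -0.88 (limma adjusted p = 0.951). The difference of MGST1 on 231736_x_at was larger, with 4.60 ± 0.02 in the calorie restriction animal and 5.95 ± 0.74 in the ad libitum animal, or -1.35 ± 0.37 (SE, limma adjusted p = 0.951). On its dimmer probe sets, below the filter, the difference lay between -0.99 and 0.19. All mu-class members overlapped between the animals. Past the filter, the dimmer GSTO1 probe set, 201470_at, was the 1 of 10 with both calorie restriction samples above both ad libitum samples (0.28), against 16.4% of all probe sets. MGST1 on 231736_x_at had both of them below. The share of all probe sets with that order was not counted, so no conclusion is drawn from it.

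No member and 0% of all probe sets passed limma's adjusted p of 0.05 for this difference, and 1 member, MGST1, and 4.80% of all probe sets passed an unadjusted 0.05. That member entered the fit only through the high samples of the ad libitum animal, so its p-values are no support for a difference. The p-values measure spread within these 2 animals only. Without the ad libitum animal's sample 1, its sample 2 stood alone against the calorie restriction pair. The differences were then -1.66 for GSTM3, -1.72 for GSTM5, -1.59 for GSTM2, -1.21 and -1.13 for GSTM1, -0.57 for GSTP1 and -1.87 for MGST1. Those of GSTA4 (0.0079) and GSTO1 (0.11 and 0.34) were above 0. A fit with a lone sample assumes that it varies like the other pair, so only the size of the difference is given. Without the ad libitum animal's sample 2, the differences of GSTM3 (0.34), GSTM5 (0.065), GSTP1 (0.37) and GSTM1 on 204550_x_at (0.015) had the opposite sign. The difference of GSTM3 also had the opposite sign without the calorie restriction animal's sample 2 (0.11).

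Genes that supply glutathione, export its conjugates or share its regulation were taken from lists, each gene by its brightest probe set, with medians over all measured genes of a list. Over all 19775 measured genes, 0.349% were 2-fold higher and 0.45% lower in the calorie restriction animal, and 1.96% were higher and 3.83% lower in the ad libitum animal, so lower was the more common direction there. Of 13 further transferases and their membrane relatives, 0 were 2-fold apart in the calorie restriction animal (median 0.09), and 1 was higher and 1 lower in the ad libitum animal (median -0.13, but 0.23 over the 11 past the level filter). LTC4S, which makes leukotriene C4, was higher, at 7.48 in sample 2, against 5.30 in sample 1. PTGES, which makes prostaglandin E2, was lower, at 5.81 in sample 2, against 7.55 in sample 1. GSTA3, in humans the alpha enzyme with the strongest steroid isomerase activity, had changes of -0.43 in the calorie restriction and 0.46 in the ad libitum animal, under 2-fold in each.

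GCLC, the catalytic subunit of glutamate-cysteine ligase, was 10.02 in sample 2 and 9.27 in sample 1 of the calorie restriction animal (0.75), and 8.17 in sample 2 and 10.59 in sample 1 of the ad libitum animal (-2.42). GCLM, the ligase's modifier subunit, had changes of -0.36 in the calorie restriction and -0.94 in the ad libitum animal, under 2-fold in each. SLC7A11, the cystine transporter, below the filter, had changes of 0.02 in the calorie restriction and -1.92 in the ad libitum animal, the second being -0.49 when its 3 probe sets were averaged. ANPEP, a peptidase of glutathione breakdown products, was lower in the calorie restriction animal (-2.38, and -0.65 with the mean of its 3 probe sets). Of 19 genes of glutathione supply, 1 was lower in the calorie restriction animal (median 0.08) and 2 in the ad libitum animal (median -0.19), and none was higher.

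Regulators and targets of NRF2 that were 2-fold apart were all lower, in 1 animal. Of 23 measured, none was 2-fold apart in the calorie restriction animal (median -0.01) and 5 were lower and none higher in the ad libitum animal (median -0.17). The 5 were the aldo-keto reductase AKR1B10 (-3.84), the thioredoxin reductase TXNRD1 (-1.91), the quinone reductase NQO1 (-1.18), the haem oxygenase HMOX1 (-1.07) and the NADPH-making malic enzyme ME1 (-1.01). With the mean of all probe sets, NQO1 (-0.83) and ME1 (-0.74) came under 2-fold. In that animal these 5 genes went the other way from the mu-class members on their brightest probe sets, while 7 of the 23 had a change above 0. A link between the list and the transferases was not tested.

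Among 7 pumps for conjugates, none was 2-fold apart in the calorie restriction animal (median -0.19). ABCC5 was higher (1.30, and 0.91 as the mean over its 3 probe sets) and ABCC3 lower (-1.19, and -0.29 as the mean over its 5 probe sets) in the ad libitum animal, where the list's median was -0.01. Of 9 genes that clear aldehydes, ALDH1A1 was higher in the ad libitum animal (1.08, list median 0.16) and none was 2-fold apart in the calorie restriction animal (median -0.01). No gene among 10 of the aryl hydrocarbon receptor and phase I list was 2-fold apart, with medians of -0.19 in the calorie restriction and -0.06 in the ad libitum animal.

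**Figure D3:**
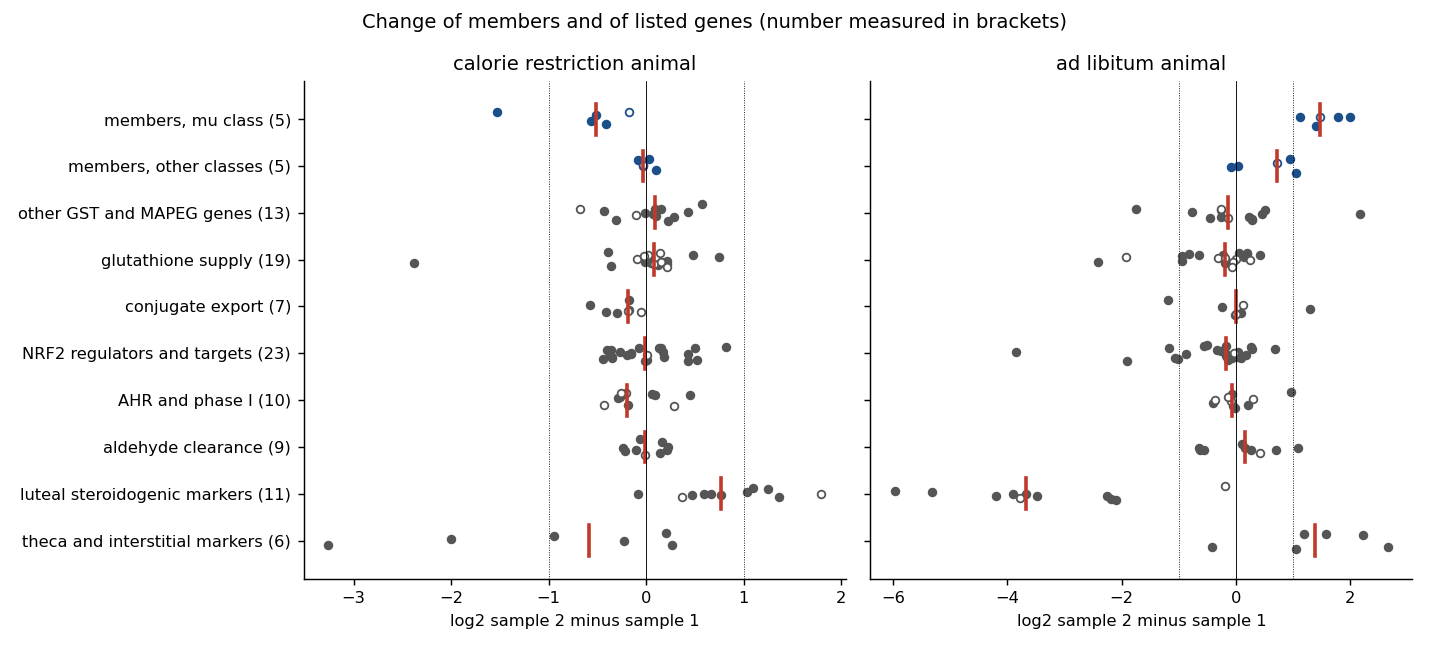
Log2 sample 2 minus sample 1 (horizontal axis) in the calorie restriction animal (left) and the ad libitum animal (right) for the brightest probe set of each member and each listed gene (points, open below the level filter), with red bars at the list medians and dotted lines at 2-fold. In the ad libitum animal the 5 mu-class members lie right of the 2-fold line, the luteal markers lie far to the left (median -3.68) and most theca markers to the right (median 1.38).

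Markers of cell types moved in the same comparisons. Of 11 markers of luteal steroidogenic cells, 5 were 2-fold higher and none lower in the calorie restriction animal's sample 2 (median 0.77), and in that of the ad libitum animal 10 were lower and none higher (median -3.68). Their mean log2 signal was 9.54 in sample 2 and 8.70 in sample 1 of the calorie restriction animal, and 6.83 in sample 2 and 10.20 in sample 1 of the ad libitum animal, so the tissue's defining genes were weakest in the array in which the mu class was strongest. Of 6 markers of theca and interstitial cells, 2 were lower in the calorie restriction animal's sample 2 (median -0.59) and 5 were higher than sample 1 in that of the ad libitum animal (median 1.38), with mean log2 signals of 7.35 in sample 2 and 8.34 in sample 1 of the calorie restriction animal and 9.87 in sample 2 and 8.49 in sample 1 of the ad libitum animal. Averaged over all probe sets of a gene, the theca counts were 2 lower in the calorie restriction and 2 higher in the ad libitum animal, and the luteal counts 5 higher in the calorie restriction and 10 lower in the ad libitum animal. Theca markers did not all go one way, as CYB5A had changes of 0.20 in the calorie restriction and -0.42 in the ad libitum animal and GLI1 of 0.27 in the calorie restriction and 1.57 in the ad libitum animal, while INSL3, a theca cell hormone, had -2.00 in the calorie restriction and 2.66 in the ad libitum animal.

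Of 11 endothelial markers, 1 was lower in the calorie restriction animal (median -0.40) and 6 in the ad libitum animal (median -1.09), or, averaged over the probe sets of a gene, 0 in the calorie restriction and 4 in the ad libitum animal. Of 11 macrophage markers, 1 was lower in the calorie restriction animal (median -0.22), and 3 were higher and 1 lower in the ad libitum animal (median 0.35). Of 9 oocyte markers, 3 were higher in the ad libitum animal (median 0.59). Most of that list lay below the level filter, and of the 3 markers past it 2 were higher (median 3.64). Both of these passed the filter only through the high signal of the ad libitum animal's sample 2. This count and its median are therefore no support for a change. Of 7 granulosa markers 3 were higher and 2 lower in the ad libitum animal (median 0.73), and of 10 smooth muscle and pericyte markers 1 was higher and 2 lower (median 0.30). Of 5 mast cell markers 1 was lower (median -0.33) and of 7 surface epithelium markers 2 were lower (median -0.20), with 0 higher in both lists. In the calorie restriction animal 2 smooth muscle and pericyte markers (list median 0.22) and 1 surface epithelium marker (list median 0.39) were higher. No oocyte, granulosa or mast cell marker was 2-fold apart there. Averaged over the probe sets of a gene, macrophage counts in the ad libitum animal were 2 higher and 0 lower. Smooth muscle and pericyte counts were then 0 higher and 1 lower in it, with none in the calorie restriction animal. The part of these markers in the values of the transferases was not tested. In whole tissue, fewer cells of a type and less RNA per cell cannot be told apart.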

How the data were processed

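Frozen corpus luteum RNA was copied into biotin-labelled cRNA for 1 array per sample, as the labels' protocols state. The table the authors deposited holds log2 signals, summarised by probe set after background correction and quantile normalisation across arrays (RMA in Affymetrix Power Tools, per the submitters' processing notes, with no version given in the sources used here). Median log2 signal was 3.96 to 4.00. Scanner files were not used here, and the number of arrays limits precision.

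Of 54675 probe sets, 62 controls were left out. Symbols came from the platform annotation. A gene was read by its brightest probe set with 1 symbol. The level filter was the median of that mean over 19775 genes, and it left 16798 probe sets and 9888 genes. All probe sets of the 10 genes are given whatever their level. Genes of the pathway lists are named where 2-fold apart in either animal, and cell type markers are given by counts. GSTA3, GCLM, INSL3, CYB5A and GLI1 were named after their values were seen.

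Differences between animals and opposed and common changes were fitted with limma 3.58.1 in R 4.3.3 (lmFit, eBayes with trend, Benjamini-Hochberg over all probe sets past the filter). The procedure was also run on simulated arrays with independent noise, which cannot show how it performs on arrays as far apart as these. Members and lists were chosen with earlier results of these data known. Alternatives were other level filters, cyclic loess, 1.5-fold, other probe set rules, no trend, blocks by sample number and leaving out each sample.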

Additional observations from a re-analysis of the deposited data

Results flagged for a closer look

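GSTM3 was 2-fold apart in both animals in opposite directions, with log2 changes of -1.53 in the calorie restriction and 2.00 in the ad libitum animal. With 1 array for each sample, this difference between the animals passed no test over all probe sets (limma, opposed change, adjusted p = 0.747; 0.381 to 0.747 over its settings). It rests on 1 probe set of an _s_at design.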

How the results depend on the processing

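Without _x_at and _s_at probe sets, 0 member probe sets past the filter were 2-fold lower in the calorie restriction animal (1 with them) and 0 higher in the ad libitum animal (6 with them). All of those lost are of these designs, so both counts of 0 follow from the rule. By gene, the brightest probe set of plain design gave 0 lower and 0 higher (otherwise 1 and 5). GSTM1, GSTM2 and GSTM5 have no such probe set and could not be counted. GSTM3 (-0.12 in the ad libitum animal) and MGST1 (0.05) were then read by probe sets below the level filter. These counts therefore cannot tell whether the changes hold. The mean of all probe sets gave 0 lower and 3 higher. Cyclic loess and 1.5-fold kept the counts of probe sets and of genes within 1.5 times, and so did, for probe sets, the other level filters and probe sets with 1 symbol. Limma's call counts of 0 for the opposed and the common change were also 0 under each alternative run. For the difference between animals, leaving out each sample in turn gave 0 to 1161 calls over all probe sets and 0 to 4 among members. The difference ranged from -1.66 to 0.34 for GSTM3, from -1.72 to 0.065 for GSTM5 and from -0.57 to 0.37 for GSTP1, and the cause was not tested. With sample number as a replicate block limma called 0 probe sets, and 0 with the numbers crossed, an alternative added after same-numbered samples were seen to deviate in opposite directions (r = -0.23 over probe sets). The shared numbers were not taken as pairs. The number of arrays and probes shared between relatives limit what can be told.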
